A study of Mus musculus with 12 samples.

Results

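The keratins Krt5, Krt14, Krt1, Krt2, Krt10 and Krt77 were followed through chromatin accessibility in mouse skin and skin tumours, measured by ATAC-seq, an assay that reads where a transposase can cut DNA. Every accessible region (peak) whose nearest protein-coding gene, within 50 kb on the mm10 build, is one of these 6 genes was taken, which gave 45 of 177240 peaks. Krt14 had 11 peaks and Krt10 had 7, on chromosome 11, and Krt5 had 8, Krt1 had 6, Krt2 had 4 and Krt77 had 9, on chromosome 15. All samples came from female mice of mixed strain, and cells were sorted with antibodies to CD45, CD31, CD140a and Epcam by a protocol the labels word for tumours. There were 5 groups. Lgr5 Epcam- (1 sample) and Lgr5 Epcam+ (2 samples) are the Epcam-negative and Epcam-positive cells of tumours of mice with Lgr5CreER and KRasLSL-G12D, p53fl/fl and Rosa-YFP+/+, labelled as hair follicle. K14 Epcam+ (1 sample) holds the Epcam-positive cells of tumours of mice with K14CreER and the same KRasLSL-G12D, p53fl/fl and Rosa-YFP+/+ alleles, labelled as interfollicular epidermis. Hair follicle (HF, 1 sample) and interfollicular epidermis (IFE, 1 sample) are the normal WT groups. The normal samples carry none of these alleles by their labels. The tumours differ in the Cre driver, which is the K14 promoter of basal keratinocytes (the promoter of Krt14, itself a member) or Lgr5, a gene of hair follicle stem cells.

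Keratins form the intermediate filaments of epithelial cells, in which a type I keratin pairs with a type II keratin. In mouse the type I genes Krt14 and Krt10 lie in the cluster on chromosome 11 and the type II genes Krt5, Krt1, Krt2 and Krt77 in the cluster on chromosome 15. Krt5 and Krt14 pair in the basal layer of the epidermis and in the outer root sheath of the follicle. A cell that leaves the basal layer turns on Krt1 and Krt10, which pair in the suprabasal layers. Krt2 is a late suprabasal keratin, and Krt77 is a type II keratin known from suprabasal epidermis and eccrine ducts.

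The promoters of 4 members are shown because the results turn on peaks over them: the start peak of Krt5 was low in Lgr5 Epcam-, those of Krt10 and Krt77 were low in all tumour samples, and no peak covered the start of Krt2. Each is the 250 bases before the RefSeq start (GRCm38.p6, minus strand), and the capitals mark TATAAA and CACCC (a core of Klf factor sites) on either strand.
Krt5 chr15:101712906-101713155: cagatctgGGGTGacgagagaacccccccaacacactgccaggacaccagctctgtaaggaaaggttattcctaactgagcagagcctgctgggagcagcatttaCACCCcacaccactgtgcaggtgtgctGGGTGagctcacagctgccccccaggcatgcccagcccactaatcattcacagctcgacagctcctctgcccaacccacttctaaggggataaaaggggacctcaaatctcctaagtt
Krt10 chr11:99389365-99389614: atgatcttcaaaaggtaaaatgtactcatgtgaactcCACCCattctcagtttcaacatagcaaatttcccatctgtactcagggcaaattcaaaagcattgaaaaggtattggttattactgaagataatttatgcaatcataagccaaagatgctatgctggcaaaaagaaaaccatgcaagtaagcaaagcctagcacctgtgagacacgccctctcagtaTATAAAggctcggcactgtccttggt
Krt77 chr15:101869706-101869955: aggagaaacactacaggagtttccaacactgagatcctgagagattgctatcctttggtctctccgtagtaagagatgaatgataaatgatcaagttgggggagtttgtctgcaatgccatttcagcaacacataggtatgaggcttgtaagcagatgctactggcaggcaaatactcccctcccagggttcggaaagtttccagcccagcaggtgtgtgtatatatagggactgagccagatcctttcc
Krt2 chr15:101818170-101818419: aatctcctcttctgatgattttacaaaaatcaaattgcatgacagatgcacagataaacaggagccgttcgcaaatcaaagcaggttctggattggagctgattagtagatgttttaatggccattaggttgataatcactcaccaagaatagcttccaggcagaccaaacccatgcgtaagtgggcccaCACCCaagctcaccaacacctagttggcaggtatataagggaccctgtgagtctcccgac
The whole window lay inside a peak for Krt5 (peak 5), Krt10 (peak 3) and Krt77 (peak 7), whereas the nearest Krt2 peak lay 2671 bp away. TATAAA was found in the Krt10 window alone, starting 26 bases before the start, and 12.4% of 32851 such windows in the RefSeq table hold it. CACCC occurred 3 times in the Krt5 window and once each in those of Krt10 and Krt2, against a share of 52.0% of all windows with at least 1 match. The other motifs searched on both strands were TGANTCA (AP-1, in 6.75% of all windows), GCCNNNGGC (Tfap2, 13.7%), AACNNGTT (Grhl, 3.64%), TGTGGT (Runx, 14.045%) and the p63 motif (63.5%). Of these only the p63 motif matched, once, in Krt5, and the Krt77 window held none of the 7. A match is a string of letters and was not tested as a site, and its absence says only that these letters are not in the window.

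Counts in peaks, summed over the single-end and paired-end runs, ranged from 32086654 to 62941406 per sample. On chromosome 15 the paired-end run alone was used, because from position 31173425 on the single-end counts of K14 Epcam+ are low for their paired-end counts. Over the 27 member peaks there the median log2 single-end over paired-end ratio was -0.56 in K14 Epcam+, against 0.10 to 0.33 in the other samples. Levels are given in CPM, the counts of a sample scaled by TMM to a common total in peaks. Epcam, whose protein was used in the sort, had 46.3 CPM over its peaks in Lgr5 Epcam-, against 216 and 218 CPM in Lgr5 Epcam+, and Lgr5 had 217 CPM in HF and 48.3 CPM in IFE. The 1 peak of Trp53 lies near the gene's start and read 16.2 to 21.0 CPM. The labels do not say which part of the gene is floxed, so this peak does not check the floxed alleles. The Lgr5 Epcam+ pair is the only replicate, and the labels do not say that its samples are separate animals. Each p-value therefore measures the spread of that pair alone, which may be technical, and every lone sample is assumed to vary as the pair does.

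Krt5 and Krt14, the basal pair, had the most accessible chromatin of the 6 genes in the Epcam+ tumour samples and in HF, and both were lowest in Lgr5 Epcam-. In IFE Krt5 was again the highest, but Krt14 was below Krt77, Krt10 and Krt1. Per kb of peak, Krt5 had 2.45 CPM in Lgr5 Epcam-, 18.7 and 10.8 CPM in Lgr5 Epcam+, 11.6 CPM in K14 Epcam+, 16.2 CPM in HF and 15.7 CPM in IFE. The 2 Lgr5 Epcam+ samples were far apart, and K14 Epcam+, HF and IFE all lay inside the range of that pair. Krt14 had 3.14 CPM per kb in Lgr5 Epcam-, 13.2 and 13.9 CPM in Lgr5 Epcam+, 11.1 CPM in K14 Epcam+, 8.27 CPM in HF and 8.87 CPM in IFE. Here the pair was close, all 3 Epcam+ tumour samples were above both normal samples, and HF and IFE differed by a log2 ratio of only -0.10.

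In CPM per kb the suprabasal genes were ordered otherwise, with IFE highest for all 4, HF next, and the tumours below. The place of HF above the tumours depends on that scale, as the density outside peaks, given below, was highest in HF. Per kb of peak, Krt1 had 1.36 CPM in Lgr5 Epcam-, 1.62 and 2.35 CPM in Lgr5 Epcam+, 1.68 CPM in K14 Epcam+, 2.82 CPM in HF and 11.6 CPM in IFE. Krt10, its partner, had 3.06 CPM per kb in Lgr5 Epcam-, 2.33 and 4.05 CPM in Lgr5 Epcam+, 2.46 CPM in K14 Epcam+, 5.38 CPM in HF and 12.2 CPM in IFE. K14 Epcam+ lay inside the range of the Lgr5 Epcam+ pair for both genes and Lgr5 Epcam- did so for Krt10, while IFE stood clear of all others. Krt77 had 1.30 CPM per kb in Lgr5 Epcam-, 1.95 and 1.997 CPM in Lgr5 Epcam+, 1.71 CPM in K14 Epcam+, 4.57 CPM in HF and 13.3 CPM in IFE. Krt2 had 0.902 CPM per kb in Lgr5 Epcam-, 1.16 and 1.19 CPM in Lgr5 Epcam+, 0.973 CPM in K14 Epcam+, 1.99 CPM in HF and 2.35 CPM in IFE, the lowest level of any member in every sample.

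**Figure D1:**
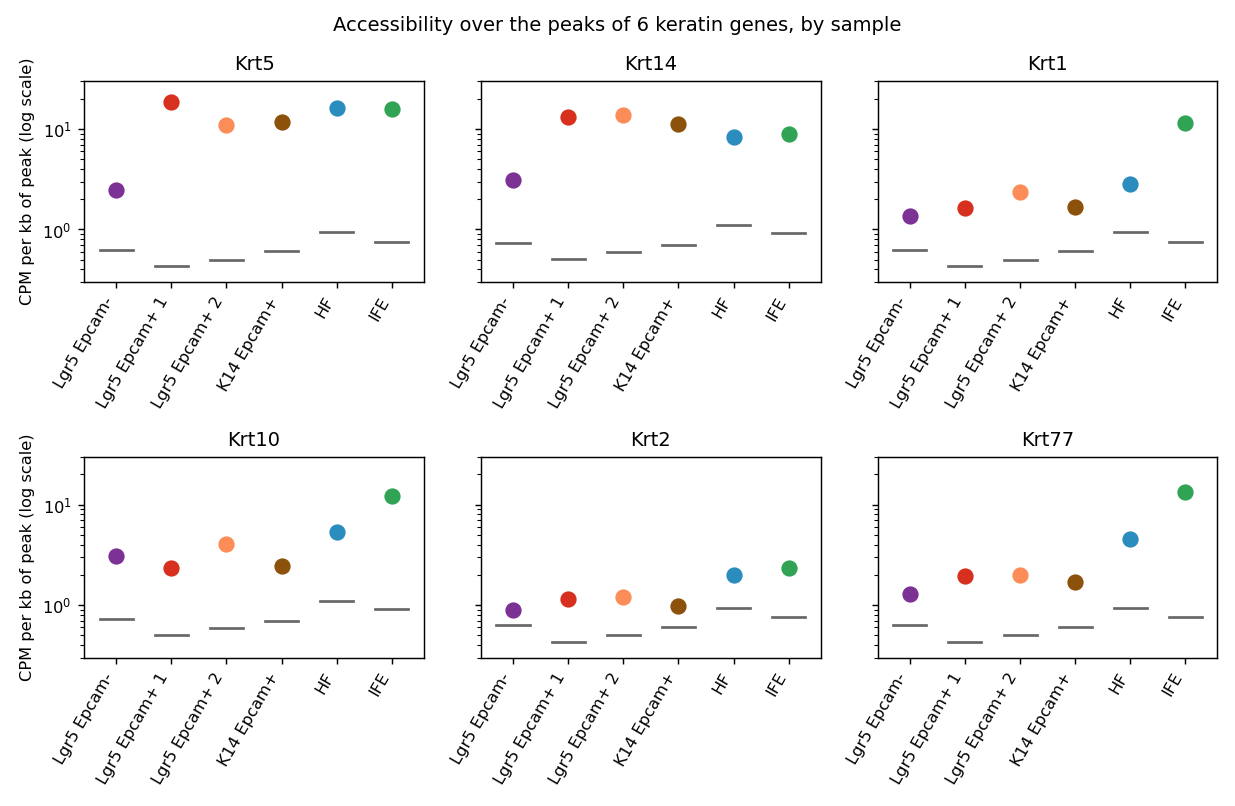
Accessibility of each keratin gene in the 6 samples, as CPM per kb over all of its peaks (log scale), with a grey bar for the density of counts outside peaks in the same sample. Krt5 and Krt14 are low in Lgr5 Epcam- alone, Krt1, Krt10 and Krt77 are highest in IFE, and Krt2 stays near the bars.

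The density of counts outside peaks gives a scale for these levels. In the paired-end runs it was 0.630 CPM per kb in Lgr5 Epcam-, 0.431 and 0.502 in Lgr5 Epcam+, 0.612 in K14 Epcam+, 0.943 in HF and 0.758 in IFE. In the summed runs it was 0.736 CPM per kb in Lgr5 Epcam-, 0.509 and 0.592 in Lgr5 Epcam+, 0.703 in K14 Epcam+, 1.11 in HF and 0.914 in IFE. Each member peak was set against the density of its own runs, summed on chromosome 11 and paired-end on chromosome 15. Of the 26 suprabasal peaks, 21 were under 2 times that density in Lgr5 Epcam-, 8 and 10 in Lgr5 Epcam+, 13 in K14 Epcam+, 10 in HF and 0 in IFE. Of the 19 basal peaks, 7 were under it in Lgr5 Epcam-, 0 and 1 in Lgr5 Epcam+, 1 in K14 Epcam+, 4 in HF and 4 in IFE. Over all 177240 peaks the share under 2 times the density (paired-end) was 28.6% in Lgr5 Epcam-, 19.6% and 19.7% in Lgr5 Epcam+, 23.5% in K14 Epcam+, 47.1% in HF and 37.2% in IFE. On summed runs it was 29.8% in Lgr5 Epcam-, 19.4% and 19.7% in Lgr5 Epcam+, 24.2% in K14 Epcam+, 50.1% in HF and 39.6% in IFE. Most suprabasal peaks were thus under 2 times the density in Lgr5 Epcam-. In IFE the lowest, a Krt2 peak, was just over that limit at 2.03 times, and the 4 Krt2 peaks reached 3.15 times at most.

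The first comparison asks how the chromatin of these genes differs between Epcam+ tumour cells (the mean of K14 Epcam+ and Lgr5 Epcam+) and normal epithelium (the mean of HF and IFE). Suprabasal peaks fell and a set of Krt14 peaks rose. By edgeR's quasi-likelihood test with Benjamini-Hochberg adjustment over all peaks and a threshold of 0.05, 12 of the 26 suprabasal peaks were lower and 0 higher, and 5 of the 19 basal peaks were higher and 0 lower. Of all peaks tested, 15.2% (summed runs) and 15.9% (paired-end runs) were higher, and 14.3% and 12.7% were lower. The median log2 ratio was -1.39 over the suprabasal peaks, all 26 of which were below 0, and 0.08 over the basal peaks, while over all peaks it was -0.0023 (summed runs) and 0.03 (paired-end runs). In bulk samples, fewer cells of a type and less open chromatin per cell cannot be told apart. Peaks of 1 gene share their samples and are not replicates.

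At the level of summed gene counts, Krt77, Krt1 and Krt10 fell. The log2 ratio was -2.09 ± 0.25 (SE) for Krt77 (adjusted p = 0.000206, edgeR), -1.65 ± 0.28 for Krt1 (adjusted p = 0.00161) and -1.53 ± 0.27 for Krt10 (adjusted p = 0.00242), where 9.59% (summed runs) and 9.54% (paired-end runs) of all 18108 genes tested were lower. Krt2 had -1.01 ± 0.40 (adjusted p = 0.0870), Krt5 -0.29 ± 0.28 (adjusted p = 0.4998) and Krt14 0.52 ± 0.23 (adjusted p = 0.127), none past the threshold. These calls leaned on IFE. With IFE left out, 6 suprabasal peaks were lower and Krt77 alone passed by gene sum (log2 ratio -1.32, adjusted p = 0.0143), while Krt1 had -0.63 (adjusted p = 0.265) and Krt10 -0.94 (adjusted p = 0.0823). With HF left out, 15 suprabasal peaks were lower, Krt77, Krt1 and Krt10 passed, and 1 basal peak was higher, against 3 with IFE left out.

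The largest difference was at Krt77 peak 1, chr15:101855170-101856227, which lies 2504 bp beyond the far end of the Krt77 span, between Krt77 and Krt1. It had 1.11 and 0.919 CPM in Lgr5 Epcam+ and 1.55 CPM in K14 Epcam+, against 17.2 CPM in HF and 57.2 CPM in IFE. Both normal samples were above all tumour samples by more than 10-fold, and Lgr5 Epcam- had 0.559 CPM. The log2 ratio of Epcam+ tumours over normals was -4.64 ± 0.45 (adjusted p = 1.18e-09, edgeR), and it was the highest peak of Krt77 by mean CPM. The peak over the Krt77 start, peak 7, had 0.346 and 0.689 CPM in Lgr5 Epcam+ and 1.02 CPM in K14 Epcam+, against 3.66 CPM in HF and 10.8 CPM in IFE, and its log2 ratio was -3.12 ± 0.57 (adjusted p = 9.07e-05). Peaks 2 and 9, which flank the gene, also fell (-2.09 ± 0.54, adjusted p = 0.00323, and -1.61 ± 0.52, adjusted p = 0.0173). Peaks 3 to 6, inside the gene, had log2 ratios of -1.35 to -0.55 and did not pass.

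At Krt10 the peak over the start, peak 3 (chr11:99388729-99389750), had 0.602 and 0.634 CPM in Lgr5 Epcam+ and 1.07 CPM in K14 Epcam+, against 2.999 CPM in HF and 12.0 CPM in IFE. The groups did not overlap, and the log2 ratio was -2.88 ± 0.47 (adjusted p = 0.000792, edgeR). Peak 6, 14.5 kb upstream of the start, had 0.784 and 1.57 CPM in Lgr5 Epcam+ and 1.20 CPM in K14 Epcam+, against 4.70 CPM in HF and 22.9 CPM in IFE, with a log2 ratio of -3.13 ± 0.51 (adjusted p = 0.000813). In all, 5 of the 7 Krt10 peaks fell. Peak 2, inside the gene 3.01 kb from the start, was not among them. It had 7.99 and 12.2 CPM in Lgr5 Epcam+ and 8.10 CPM in K14 Epcam+, against 10.8 CPM in HF and 12.7 CPM in IFE, and 12.1 CPM in Lgr5 Epcam-. It was the highest Krt10 peak by mean CPM, its groups overlapped, and in Lgr5 Epcam- its density was higher against that outside peaks than at any other member peak.

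Krt1 peak 5 covers the upper end of the gene span, taken as the start, at chr15:101850230-101851259. It had 0.866 and 1.42 CPM in Lgr5 Epcam+ and 1.26 CPM in K14 Epcam+, against 3.33 CPM in HF and 21.0 CPM in IFE, with a log2 ratio of -2.80 ± 0.55 (adjusted p = 0.000212, edgeR). IFE stood far above HF, which in turn was above the tumours. Peak 1, 9693 bp beyond the other end of the gene, had 0.935 and 0.689 CPM in Lgr5 Epcam+ and 1.07 CPM in K14 Epcam+, against 3.55 CPM in HF and 13.2 CPM in IFE (log2 ratio -2.87 ± 0.55, adjusted p = 0.000169). Peak 2, the highest Krt1 peak by mean CPM, had 3.05 and 7.17 CPM in Lgr5 Epcam+ and 2.33 CPM in K14 Epcam+, against 3.55 CPM in HF and 20.7 CPM in IFE, so HF lay among the tumour samples and the peak did not pass. Krt2 peak 2, the highest and the nearest to the start of Krt2, had 1.49 and 1.88 CPM in Lgr5 Epcam+ and 0.873 CPM in K14 Epcam+, against 1.17 CPM in HF and 1.54 CPM in IFE. Those ranges overlapped, and 0 of the 4 Krt2 peaks passed, although all 4 log2 ratios were below 0.

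**Figure D2:**
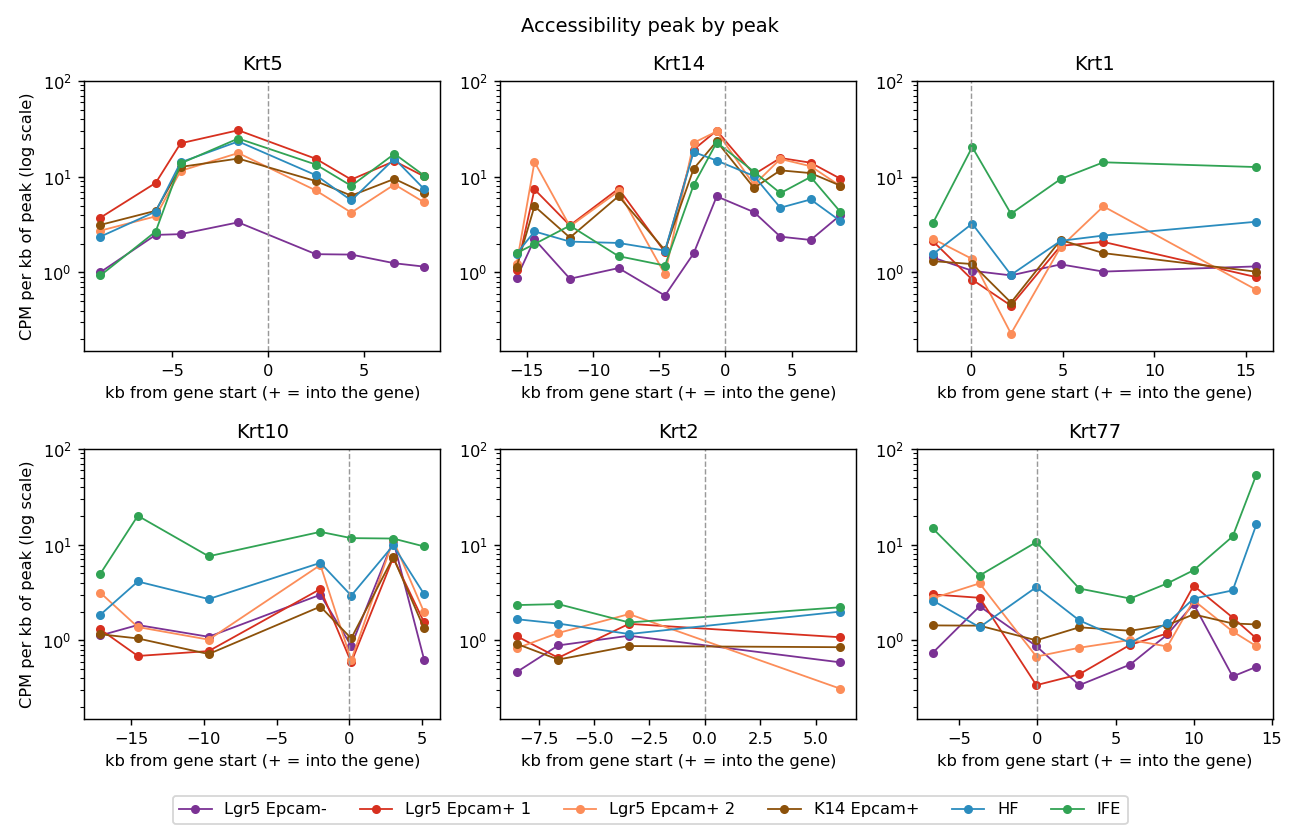
Accessibility of the 45 member peaks, in CPM per kb (log scale), against the distance of the peak's centre from the gene start (dashed line; the upper end of the span for Krt14 and Krt1), with 1 line per sample. Most Krt1, Krt10 and Krt77 peaks are highest in IFE with HF next, the Krt10 peak 3.01 kb inside the gene has all samples together, and the Lgr5 Epcam- line runs below the others over most of Krt5 and Krt14.

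The 5 basal peaks that rose in Epcam+ tumours all belong to Krt14. Peak 8, 8.07 kb upstream of the start, had 9.25 and 8.68 CPM in Lgr5 Epcam+ and 7.72 CPM in K14 Epcam+, against 2.50 CPM in HF and 1.82 CPM in IFE, and its log2 ratio was 1.96 ± 0.47 (adjusted p = 0.00762, edgeR). All 3 Epcam+ tumour samples were above both normal samples by more than 3-fold, while Lgr5 Epcam- had 1.37 CPM. Peak 10, 14.4 kb upstream, had 8.70 and 16.8 CPM in Lgr5 Epcam+ and 5.80 CPM in K14 Epcam+, against 3.16 CPM in HF and 2.33 CPM in IFE (1.66 ± 0.49, adjusted p = 0.0220). Peak 3, over the far end of the gene, had 25.2 and 24.6 CPM in Lgr5 Epcam+ and 18.7 CPM in K14 Epcam+, against 7.62 CPM in HF and 10.8 CPM in IFE (1.25 ± 0.30, adjusted p = 0.00815). Peaks 2 and 5 rose less in edgeR, with log2 ratios of 0.67 ± 0.24 (adjusted p = 0.0495) and 0.53 ± 0.18 (adjusted p = 0.0393). Peak 2 had 34.6 and 31.8 CPM in Lgr5 Epcam+ and 27.0 CPM in K14 Epcam+, against 14.3 CPM in HF and 24.6 CPM in IFE. K14 Epcam+ was thus next to IFE at peak 2, and HF was the lowest of these samples. Total-count scaling, centring by chromosome, the other set of runs and DESeq2 each called 3 peaks higher, as did leaving out IFE. With HF left out, 1 peak was called higher.

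Peak 5 (chr11:100207090-100209249) covers the upper end of the Krt14 span, which is used here as the start. The RefSeq promoter table puts the start at 100206030, inside the span and within peak 4, which did not pass (-0.34 ± 0.30, adjusted p = 0.423, edgeR). Peak 5 was the most accessible Krt14 peak, with 65.5 and 64.3 CPM in Lgr5 Epcam+ and 50.6 CPM in K14 Epcam+, against 31.9 CPM in HF and 49.2 CPM in IFE. K14 Epcam+ was thus next to IFE, and HF was the lowest of these samples. None of the Krt5 peaks passed in either direction. Its largest, peak 5 (chr15:101712366-101716570), which spans the start and 4205 bp in all, had 129 and 74.4 CPM in Lgr5 Epcam+ and 65.1 CPM in K14 Epcam+, against 98.3 CPM in HF and 105 CPM in IFE. Both normal samples lay between the Lgr5 Epcam+ samples. Along chromosome 15 beyond the single-end step, Lgr5 Epcam+ sample 1 exceeded sample 2 by a median log2 ratio of 0.35 over 6408 peaks, and by 0.49 in the 2 Mb around Krt5 to Krt77, against 0.92 over the 8 Krt5 peaks. The part that this shift has in the spread of Krt5 was not tested.

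Against the tissue that carries the same label, Lgr5 Epcam+ cells were compared with HF, and K14 Epcam+ cells with IFE. In Lgr5 Epcam+ against HF, 3 Krt14 peaks were higher (peaks 2, 3 and 5) and 5 suprabasal peaks lower (Krt77 peaks 1 and 7, Krt10 peaks 3 and 6 and Krt1 peak 1), where 8.88% and 9.71% of all peaks were higher and 7.41% and 7.58% lower (summed and paired-end runs). The suprabasal median was -0.74, and 18 of 26 were below 0. Krt77 peak 1 again led, with a log2 ratio of -4.07 ± 0.51 (adjusted p = 8.85e-07, edgeR), followed by Krt77 peak 7 with -2.83 ± 0.71 (adjusted p = 0.00465) and Krt10 peak 3 with -2.27 ± 0.57 (adjusted p = 0.0165). Among the higher peaks, Krt14 peak 3 had 1.71 ± 0.42 (adjusted p = 0.0145), peak 2 had 1.22 ± 0.33 (adjusted p = 0.0237) and peak 5 had 1.03 ± 0.25 (adjusted p = 0.0127). By gene sum Krt77 alone passed, with 20.2 and 20.7 CPM in Lgr5 Epcam+, against 47.4 CPM in HF (log2 ratio -1.21 ± 0.32, adjusted p = 0.0263), while Krt1 had -0.51 ± 0.37 (adjusted p = 0.39999) and Krt10 -0.76 ± 0.34 (adjusted p = 0.178). Of the 9 Krt77 peaks, 4 had log2 ratios above 0 here. As a multiple of the density outside peaks, the median Krt77 peak was at 2.76 in HF, against 2.74 and 2.01 in Lgr5 Epcam+. The part of that density in the fall of the Krt77 sum was not tested. Of all genes, 5.04% and 5.07% were lower and 5.82% and 5.91% higher in the same fits.

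K14 Epcam+ and IFE have 1 sample each, so no p-value is given, and a peak was counted at an absolute log2 ratio of at least 2 and a gene sum at 1. For Lgr5 Epcam+ sample 1 against sample 2, these sizes were reached by 0 of the 45 member peaks and, among all peaks, by 0.434% and 0.772% higher and 0.962% and 1.56% lower. In K14 Epcam+ against IFE, 15 of 26 suprabasal peaks were lower by that size and 1 basal peak, Krt14 peak 8, was higher (2.06), where 5.87% and 6.64% of all peaks were lower and 7.35% and 9.4% higher. The suprabasal median was -2.33. Krt77 peak 1 had 1.55 CPM in K14 Epcam+, against 57.2 CPM in IFE, a log2 ratio of -5.12 (95% counting interval -5.76 to -4.70), and Krt10 peak 6 had -4.20, Krt1 peak 5 -3.96 and Krt1 peak 1 -3.52. By gene sum, Krt77 (-2.96), Krt1 (-2.77), Krt10 (-2.31) and Krt2 (-1.25) were all lower by at least the size limit, where 7.5% and 7.42% of genes were, and Krt5 (-0.44) and Krt14 (0.33) stayed inside it. Counting intervals cover counting error only, and reads copied by PCR are not independent molecules.

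The tumour changes of the 2 Cre drivers were set against each other in a test of the difference itself, (Lgr5 Epcam+ over HF) over (K14 Epcam+ over IFE). For no member peak did they differ past the threshold in edgeR (0 higher, 0 lower) or in DESeq2 (0 and 0). Of all peaks, 0.000564% and 0.0135% were higher and 0% and 0.00508% lower. An unadjusted p under 0.05 in edgeR was reached by 10 of the 45 member peaks. Of all peaks tested, 11577 of 177238 (summed runs) and 12120 of 177237 (paired-end runs) reached it. The difference was 2.27 ± 0.58 for Krt1 (adjusted p = 0.343), 1.75 ± 0.51 for Krt77 (adjusted p = 0.440) and 1.56 ± 0.54 for Krt10 (adjusted p = 0.612), so IFE above HF in the normal samples, given next, enters each of them. Between the tumours themselves, Lgr5 Epcam+ against K14 Epcam+, 0 member peaks passed in either direction in edgeR and 0 in DESeq2. Of all peaks, 0.000564% and 0.00339% were higher and 0.0079% and 0.0147% lower. An unadjusted p under 0.05 in edgeR was seen at 1 member peak, Krt5 peak 5 (0.64 ± 0.29). Among all peaks it was seen at 10019 (summed runs) and 8581 (paired-end runs). The 6 gene sums had log2 ratios of 0.21 to 0.37 with SE of 0.31 to 0.54, and without 1 sample of the Lgr5 Epcam+ pair those of Krt5 (-0.10), Krt10 (-0.08) and Krt1 (-0.05) turned below 0. None of the gene sums passed (0 in edgeR and 0 in DESeq2), where 0.00552% and 0.00552% of genes were higher and 0.0331% and 0.0221% lower. At an unadjusted p under 0.05 in edgeR there were 0 of them, against 1262 and 813 of the 18108 genes tested. This does not show that the 2 kinds of tumour are alike.

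In normal HF against normal IFE the suprabasal keratins were lower and the basal pair was near 0 on the log2 scale. In HF 6 suprabasal peaks were lower by the size rule and 0 member peaks were higher, where 0.53% and 1.38% of all peaks were lower and 1.55% and 2.6% higher. All 26 suprabasal ratios were below 0 with a median of -1.50, and the 19 basal peaks had a median of -0.15 with 7 above 0. Krt1 peak 5 had 3.33 CPM in HF and 21.0 CPM in IFE, a log2 ratio of -2.63 (95% counting interval -3.08 to -2.26), Krt1 peak 2 had -2.51, Krt77 peak 9 had 3.44 CPM in HF and 19.5 CPM in IFE (-2.47), and Krt10 peak 6 had -2.27. Krt1, Krt77 and Krt10 passed the gene limit with -2.03, -1.54 and -1.18, where 1.5% and 2.58% of all genes were lower by that size, and Krt2 (-0.24), Krt14 (-0.10) and Krt5 (0.04) did not. The rule's limit fell close to some members: Krt1 peak 4 (-2.02) was counted and Krt10 peak 3 (-1.98) was not.

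In Lgr5 Epcam- against Lgr5 Epcam+ the basal pair fell and the suprabasal genes did not pass. By edgeR's test, 11 of the 19 basal peaks were lower and 0 higher, and 0 of the 26 suprabasal peaks were higher and 0 lower. Of all peaks, 5.27% and 5.85% were lower and 6.69% and 6.22% higher (summed and paired-end runs). An unadjusted p under 0.05 in edgeR was reached by 4 of the 26 suprabasal peaks. Among all peaks, 45508 of 177238 (summed runs) and 44086 of 177237 (paired-end runs) reached it. The median log2 ratio was -2.28 over the basal peaks, all 19 below 0, and -0.57 over the suprabasal peaks, and DESeq2 also called 11 lower and 0 higher. By gene sum, Krt5 had 35.4 CPM in Lgr5 Epcam-, against 270 and 157 CPM in Lgr5 Epcam+ (log2 ratio -2.59 ± 0.43, adjusted p = 0.00443, edgeR). Krt14 had 50.7 CPM in Lgr5 Epcam-, against 213 and 224 CPM in Lgr5 Epcam+ (-2.11 ± 0.34, adjusted p = 0.00396). Of all genes, 3.33% and 3.14% were lower and 3.47% and 3.12% higher. Krt77 (-0.60 ± 0.34, adjusted p = 0.386), Krt1 (-0.54 ± 0.38, adjusted p = 0.521), Krt2 (-0.38 ± 0.54, adjusted p = 0.808) and Krt10 (-0.06 ± 0.35, adjusted p = 0.964) did not pass in edgeR. Of the 26 suprabasal peaks, 21 were under 2 times the density outside peaks in Lgr5 Epcam-. As a multiple of that density, the median peak there was at 1.75 (Krt1), 1.53 (Krt10), 1.18 (Krt77) and 1.17 (Krt2). In Lgr5 Epcam+ it was at 3.24 and 3.21, 2.55 and 3.32, 2.74 and 2.01, and 2.53 and 2.01. Peak 2 held 513 of the 930 Krt10 counts in Lgr5 Epcam-. Not passing does not show that these genes are unchanged.

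Krt14 peak 6, 2.40 kb upstream of the start, had the largest fall, with 1.58 CPM in Lgr5 Epcam-, against 19.2 and 22.6 CPM in Lgr5 Epcam+ (log2 ratio -3.72 ± 0.51, adjusted p = 0.00174, edgeR). It was also the Krt14 peak at which HF stood furthest above IFE, with 18.2 CPM in HF and 8.196 CPM in IFE. Krt5 peak 2, at the far end of the gene, had 1.86 CPM in Lgr5 Epcam-, against 21.8 and 12.4 CPM in Lgr5 Epcam+ (-3.19 ± 0.55, adjusted p = 0.000214). The Krt5 start peak, peak 5, had 14.03 CPM in Lgr5 Epcam-, against 129 and 74.4 CPM in Lgr5 Epcam+ (-2.86 ± 0.33, adjusted p = 6.47e-06), and Krt5 peak 4 inside the gene had 3.45 CPM in Lgr5 Epcam-, against 34.3 and 15.98 CPM in Lgr5 Epcam+ (-2.86 ± 0.51, adjusted p = 0.000492). In each of these the lone Lgr5 Epcam- sample was below both Lgr5 Epcam+ samples by more than 4-fold. Krt14 peak 5, over the upper end of the span, fell less far, to 13.5 CPM in Lgr5 Epcam-, against 65.5 and 64.3 CPM in Lgr5 Epcam+ (-2.27 ± 0.26, adjusted p = 0.000803), and at 8.47 times the density outside peaks it was the highest basal peak of that sample on this measure. Peak 4, which holds the RefSeq table's start, had 7.48 CPM in Lgr5 Epcam-, against 18.5 and 14.4 CPM in Lgr5 Epcam+, and did not pass (-1.14 ± 0.42, adjusted p = 0.0924).

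**Figure D3:**
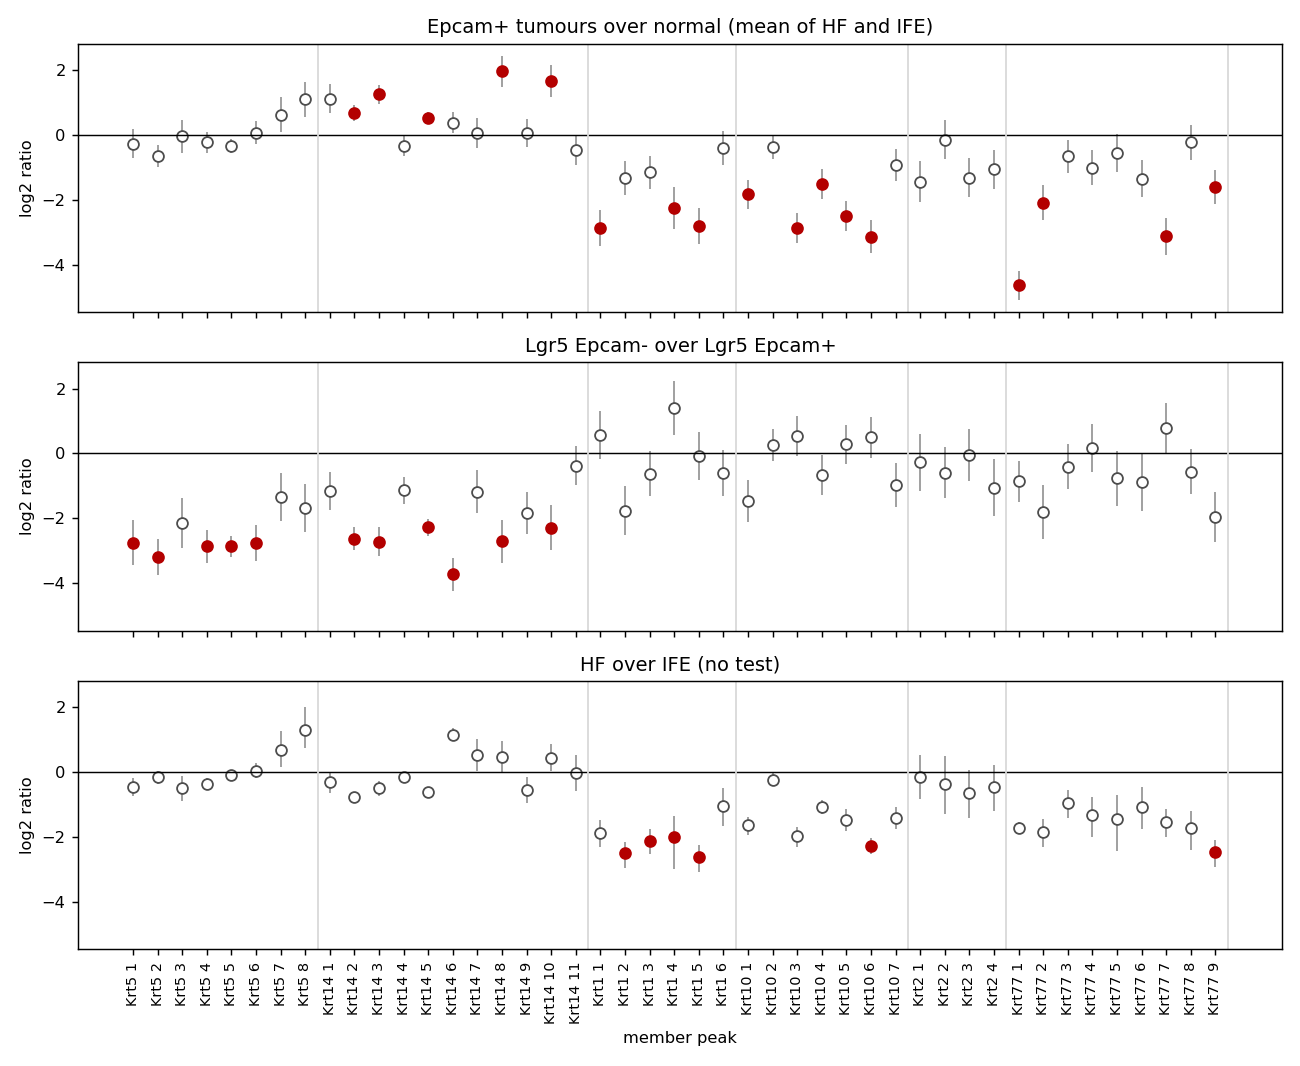
Log2 ratio of each member peak in 3 comparisons: Epcam+ tumours over the mean of HF and IFE (top), Lgr5 Epcam- over Lgr5 Epcam+ (middle) and HF over IFE (bottom). Filled points passed an adjusted p of 0.05 (top, middle) or an absolute log2 ratio of 2 (bottom, no test), and bars are SE (top, middle) or 95% counting intervals (bottom); the suprabasal peaks are low in the top and bottom panels, the basal peaks in the middle one.

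Set against HF, the normal tissue with the same label, Lgr5 Epcam- (1 sample each, no test) was lower by the size rule in 10 member peaks and higher in 0, where 6.33% and 7.79% of all peaks were lower and 7.07% and 8.9% higher. Of the 10, 6 were basal and 4 suprabasal. Krt77 peak 1 had 0.559 CPM in Lgr5 Epcam-, against 17.2 CPM in HF (log2 ratio -4.73, 95% counting interval -5.91 to -4.12), and Krt5 peak 2 had 1.86 CPM against 23.1 CPM in HF (-3.57). Krt14 peak 6 followed with -3.48 and Krt5 peak 5 with -2.80. By gene sum Krt5 (-2.72), Krt77 (-1.80), Krt14 (-1.40), Krt2 (-1.12) and Krt1 (-1.05) passed the size limit, where 8.69% and 10.2% of genes were lower by it, and Krt10 (-0.81) did not, although it passed when centred by chromosome (-1.03).

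Marker genes of several cell types also differed between Lgr5 Epcam- and Lgr5 Epcam+. Of 7 fibroblast and pericyte markers, 6 were higher in Lgr5 Epcam- than in Lgr5 Epcam+ and 0 lower (edgeR, adjusted p under 0.05), with a median log2 ratio of 1.98, and their summed level was 658 CPM in Lgr5 Epcam-, against 205 and 228 CPM in Lgr5 Epcam+. Col1a2, a chain of type I collagen, had 136 CPM in Lgr5 Epcam-, against 13.0 and 18.2 CPM in Lgr5 Epcam+, and Pdgfra, which encodes the CD140a protein used in the sort, was the 1 marker that did not pass. Of 6 epithelial markers 4 were lower (Epcam, Esrp1, Grhl2 and Cdh1) and 0 higher, with a summed level of 535 CPM in Lgr5 Epcam-, against 1686 and 1349 CPM in Lgr5 Epcam+. Of 6 endothelial markers 2 were higher and 0 lower, and of 7 leukocyte, 4 melanocyte and 6 follicle stem cell markers none passed in edgeR in either direction. The endothelial list summed to 295 CPM in Lgr5 Epcam-, against 354.3 and 316 CPM in Lgr5 Epcam+, although 4 of its 6 log2 ratios were above 0. Within it Pecam1 had 94.2 CPM in Lgr5 Epcam-, against 192.1 and 191.9 CPM in Lgr5 Epcam+. Of all genes, 3.33% and 3.14% were lower and 3.47% and 3.12% higher in that comparison. No marker measured was at 0 in any sample. In Epcam+ tumours over normals, 2 leukocyte markers were higher (Ptprc and Cd68), and that list summed to 166 and 198 CPM in Lgr5 Epcam+ and 189 CPM in K14 Epcam+, against 102 CPM in HF and 89.3 CPM in IFE. Ptprc alone had 93.6 and 119.5 CPM in Lgr5 Epcam+. Cd74 had 7.63 and 10.3 CPM in Lgr5 Epcam+ and 12.5 CPM in K14 Epcam+, against 18.3 CPM in HF and 11.8 CPM in IFE. Of the 7 log2 ratios 6 were above 0. Among all genes in this comparison, 12.8% and 12.9% were higher and 9.59% and 9.54% lower. There 3 endothelial markers were higher and 1 lower, with sums of 354.3 and 316 CPM in Lgr5 Epcam+ and 408 CPM in K14 Epcam+, against 280 CPM in HF and 268 CPM in IFE. The fibroblast marker Col1a2 was lower, Epcam was higher, 2 follicle stem cell markers were higher and 2 lower, and 0 of 4 melanocyte markers passed in edgeR. Whether these marker differences come from other cells in the sorted samples or from the tumour cells themselves was not tested. The part that other cells have in the keratin differences was not tested either.

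The genes that work beside these keratins were counted from lists of 18 basal layer partners and 20 suprabasal and cornification partners. In Lgr5 Epcam- against Lgr5 Epcam+, 5 of 18 basal partners were lower and 0 higher (median -0.87), led by the desmosomal cadherin gene Dsg3 (log2 ratio -2.36 ± 0.38, adjusted p = 0.00430, edgeR), the transcription factor gene Tfap2c (-2.06 ± 0.38) and the laminin chain gene Lama3 (-1.58 ± 0.35). Here 11 of 20 suprabasal partners were lower and 0 higher (median -1.38), among them Dsg1b (-2.97 ± 0.51), Krtdap (-2.85 ± 0.37) and Calm4 (-2.27 ± 0.33). Krt1, Krt10, Krt2 and Krt77, already low in Lgr5 Epcam+, did not pass. Over all genes in that comparison 3.33% and 3.14% were lower and 3.47% and 3.12% higher, and the median was -0.016 (summed runs). In Epcam+ tumours over normals, 2 of 20 suprabasal partners were lower and 1 higher with a median of -0.05, near or below the shares of all genes (9.59% and 9.54% lower, 12.8% and 12.9% higher). The lower ones were Dsg1a, a desmosomal cadherin gene of upper layers (-2.04 ± 0.31, adjusted p = 0.000724), and Casp14, a protease of cornification (-1.28 ± 0.28, adjusted p = 0.00679), and the higher one was the repressor gene Prdm1 (0.84 ± 0.24, adjusted p = 0.0225). Of the 18 basal partners 2 were higher and 2 lower, with 12 above 0 and a median of 0.21. Among the higher was Itgb1, an integrin chain gene (1.04 ± 0.23, adjusted p = 0.00755), and the lower were Krt15 (-2.94 ± 0.25) and Bcl11b (-0.83 ± 0.23).

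The other 45 keratin genes with peaks on chromosomes 11 and 15 (236 peaks) changed in both directions in Epcam+ tumours, with 12 higher and 9 lower and a median of 0.11, where 12.8% and 12.9% of all genes were higher and 9.59% and 9.54% lower. Krt18, a simple-epithelium keratin, had the largest rise (2.49 ± 0.34, adjusted p = 0.000420, edgeR), followed by Krt81, a hair keratin (2.40 ± 0.46), and Krt6b, a keratin of stressed epidermis (1.95 ± 0.45). Krt15, type I like Krt14 and known from basal cells and the follicle bulge, had the largest fall, with 20.1 and 24.7 CPM in Lgr5 Epcam+ and 19.9 CPM in K14 Epcam+, against 180 CPM in HF and 147 CPM in IFE. All 3 Epcam+ tumour samples were below both normal samples by more than 5-fold. In Lgr5 Epcam- against Lgr5 Epcam+, 13 of the 45 were lower and 0 higher (median -0.92), against 3.33% and 3.14% of all genes lower and 3.47% and 3.12% higher. They were led by Krt17 (-3.12 ± 0.36), Krt6a (-2.96 ± 0.39) and Krt75 (-2.44 ± 0.39).

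**Figure D4:**
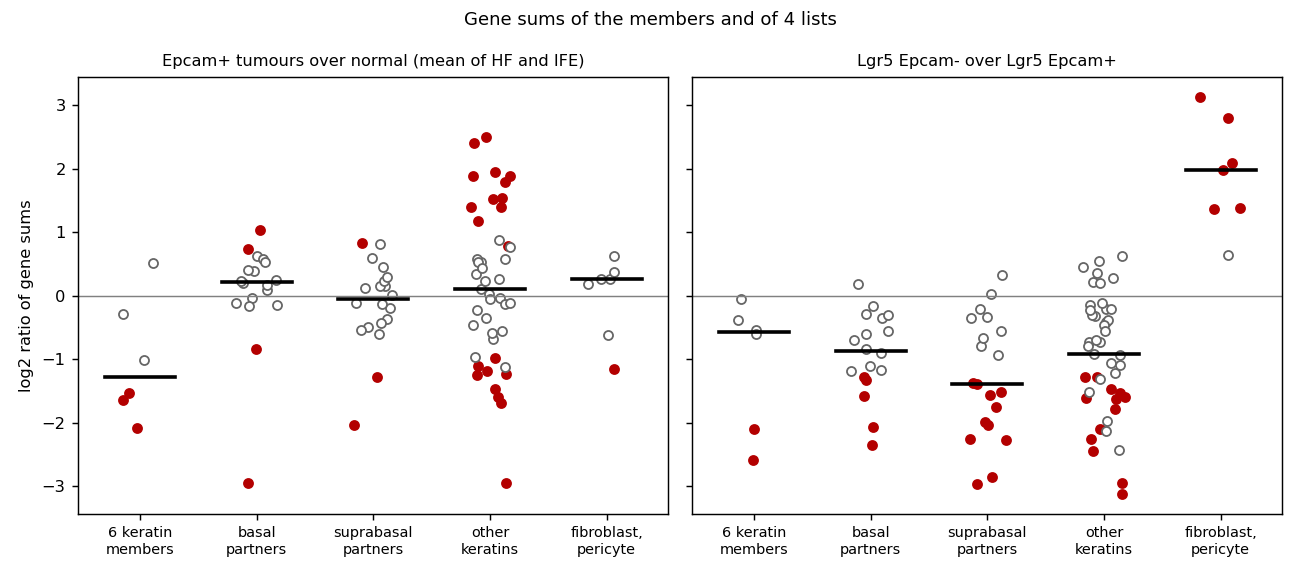
Log2 ratio of gene sums for the 6 keratin members, the 18 basal and 20 suprabasal partners, the 45 other keratins and the 7 fibroblast and pericyte markers, in Epcam+ tumours over normals (left) and Lgr5 Epcam- over Lgr5 Epcam+ (right). Filled points passed an adjusted p of 0.05 and lines are medians; the suprabasal partners have a median of -0.05 on the left and -1.38 on the right.

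The members' patterns over the 6 samples were also compared with those of 9055 genes of above-median level in the paired-end runs, by Pearson's r of log2 CPM, as a description over samples that share their libraries and depth. Krt5 was most like Ly6g6g (r = 0.995), Hr (0.993) and Grhl2 (0.993), and Krt14 was most like Gm40755 (0.997), Stx7 (0.993) and Pfkp (0.991). Krt1 was most like Scap (0.998), Sox6 (0.996) and Lsamp (0.993), Krt10 like Ang (0.991), Mfsd4b5 (0.988) and Tusc3 (0.988), Krt2 like Miga2 (0.995), Neurl1b (0.995) and Rps12 (0.993), and Krt77 like Plekhf2 (0.995), 4933440N22Rik (0.991) and Mipep (0.990). These names are the highest of 9055 genes over only 6 samples, a choice that by itself gives r near 1. Shared regulation was not tested. Among the members, Krt5 and Krt14, on different chromosomes, had r = 0.871. The spread of r over all pairs of genes is not given here. Krt1 had 0.951 with Krt10, also on another chromosome, and 0.968 with its neighbour Krt77, while Krt14 and Krt10, on the same chromosome, had -0.03.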

How the data were processed

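The deposited counts are whole numbers of reads per peak for 1 shared peak list, in 12 tables, 1 single-end and 1 paired-end for each of 6 samples, as the authors made them with Bowtie2, HOMER, bedtools and HTSeq on mm10, per the submitters' processing notes. Versions, read filters, duplicate removal and peak calling, and how reads matching several keratin genes were treated, are not stated there, so similar keratins may share reads. The deposited peak coordinates were used as given.

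Runs of a sample were summed, except on chromosomes 15 to 19, X and Y, where the paired-end run alone was used. Peaks were assigned by their distance to RefSeq protein-coding spans (GRCm38.p6, at most 50 kb). Counts per peak and summed per gene were fitted with edgeR 4.0.16 in R 4.3.3 (filterByExpr, minimum count 10; TMM; robust quasi-likelihood fit of all 6 samples together; 177238 peaks on summed runs, 177237 on paired-end runs, 18108 genes), with Benjamini-Hochberg adjustment at 0.05. All 45 member peaks passed the filter, the lowest with 137 counts over the 6 samples. The biological coefficient of variation was 0.325 and 0.356 for peaks. Comparisons of 1 sample against 1 used log2 CPM with a prior count of 2 and limits of 2 (peaks) and 1 (genes). SE were taken as the log2 ratio over the root of F. Scripts were tested on simulated data. The alternatives were total-count scaling, centring by chromosome, the other set of runs, DESeq2 1.42.0, no filter, a prior count of 0.5, a size limit of 1, a window of 10 kb, and leaving out samples.

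Given by sample are each gene's highest peak and the peak nearest its start, plus up to 4 called peaks per direction and comparison, and up to 3 called genes per list and direction. Other peaks and the marker and sort genes named were chosen after their values were seen. The density outside peaks is the counts in no peak over the genome length spanned by peaks less the peaks themselves; it may include counts on other sequences. The marker genes Lyz2 and Tyr had no peak assigned. Start positions were the RefSeq start, or the upper end of the span for Krt14 and Krt1. Members and lists were chosen with earlier results of these data known. The value of 1 listed gene is not reported here.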

Additional observations from a re-analysis of the deposited data

How the results depend on the processing

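In Epcam+ tumours against normals, the 5 higher member peaks became 3 under DESeq2, total-count scaling, centring by chromosome and the other set of runs (paired-end on chromosome 11, summed on chromosome 15), while the 12 lower ones became 18 under the last 2 of these. Leaving 1 lone library out of that comparison, chosen after seeing the data, gave 1 to 5 higher and 6 to 15 lower peaks (main 12) and 1 to 3 lower gene sums (main 3), lowest without HF for the higher peaks and without IFE for the lower ones. In K14 Epcam+ against IFE the 1 higher peak became 0 when centred by chromosome. A size limit of 1 in place of 2 gave 3 higher and 24 lower peaks there, 2 higher and 20 lower in HF against IFE, and 28 lower in Lgr5 Epcam- against HF. Krt10 in Lgr5 Epcam- against Lgr5 Epcam+ turned to 0.034 under total-count scaling (adjusted p = 0.981). Krt2 passed in Epcam+ tumours against normals when centred by chromosome (-1.22, adjusted p = 0.0387) and with the other runs (-1.30, adjusted p = 0.0208), and Krt10 passed the size limit in Lgr5 Epcam- against HF when centred (-1.03). The cause of these moves was not tested.

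Without Lgr5 Epcam+ sample 1 or sample 2 no residual degrees of freedom are left, so values alone are given. All 17, 8 and 11 called peaks of the 3 comparisons with calls kept their direction. Krt5 in Lgr5 Epcam- against Lgr5 Epcam+ was -2.14 without sample 1, Krt5 in Lgr5 Epcam+ against HF was -0.58 without sample 1, and Krt10 in Lgr5 Epcam+ against HF ranged from -1.22 to -0.41. Direction turned for Krt5 (-0.10 without sample 1), Krt10 (-0.08 without sample 2) and Krt1 (-0.05 without sample 2) in Lgr5 Epcam+ against K14 Epcam+, for Krt5 in Lgr5 Epcam+ against HF (0.20 without sample 2) and for Krt10 in Lgr5 Epcam- against Lgr5 Epcam+ (0.40 without sample 2). No paired analysis was possible because only Lgr5 Epcam+ has a second replicate, so the groups share fewer than 2 replicate numbers.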
